A study of Mus musculus with 6 samples.

Results

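Heat shock proteins and their J-domain partners were followed in MLO-Y4 cells. This mouse line resembles osteocytes, which sit inside bone matrix and sense its mechanical load. The members were all rows of the deposited table whose gene symbol marks a heat shock protein (Hspa, Hspb, Hspd, Hspe, Hsph or Hsp90), a DNAJ protein of class A, B or C, a heat shock factor (Hsf) or a Bag co-chaperone. This gave 93 of 39174 rows. Of these, 8 were pseudogenes and 1, Hsf2bp, matched by name only, which left 84 rows. The 84 comprised 11 genes of the endoplasmic reticulum (ER), 8 mitochondrial genes and 65 others, called cytosolic and nuclear here because they are in neither of the first 2 lists. The location of those 65 was not checked, so that ER and mitochondrial genes may be among them. Genes were tested where their mean over all 6 libraries reached 1 FPKM, which 64 of the 84 did.

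The flow group held 3 cultures that received oscillating fluid flow (10 dyn/cm²) for 2 h in parallel-plate chambers and were then kept for 2 h in fresh medium before lysis. The non-flow control group held 3 sham-treated cultures collected alongside. Cells of both groups grew on collagen-coated glass, were seeded 48 h earlier and were about 60% confluent, and the labels put replicates on separate days. The comparison asks which transcripts differ between flow and non-flow cells 2 h after flow ends. The line is a single immortalised cell line, so that p-values rest on differences between cultures of that line.

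Chaperones bind unfolded proteins and help them to fold. HSP70 proteins work in cycles of ATP hydrolysis that J-domain proteins stimulate and that nucleotide exchange factors such as the BAG and HSP110 proteins complete, and HSP90 proteins act later on clients handed over from HSP70. In the cytosol, heat and other proteotoxic stress activate Hsf1, which binds heat shock elements and induces Hspa1a, Hspa1b, Hsph1, Dnajb1 and Hspb1, whereas in the ER the unfolded protein response induces Hspa5, Hsp90b1 and Dnajb9 through ER stress elements and related sites. Cells of the bone lineage secrete collagen, which folds in the ER.

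None of the 64 tested members passed the test at an adjusted p under 0.05, as 0.0167% of all genes did. Of 11 ER members 9 had a positive fold change, where 48.3% of all genes did, among them Hspa5 and Hsp90b1, the ER's HSP70 and HSP90. The median of the ER members lay above the controls by 0.32 and 0.44 on the log2 scale in flow libraries 1 and 2 and by 0.08 in flow library 3. With the GC trend of protein-coding genes removed from each library, these were 0.15, 0.20 and 0.09. Over the 11 ER members a Pearson correlation of -0.58 between fold change and GC content remained after that. Of the stress-inducible cytosolic HSP70 genes, Hspa1a stood at 1 to 4 reads per library and Hspa1b at 0.682 to 1.97 FPKM. All 3 flow values lay above all 3 controls in 6 of 45 cytosolic and nuclear members, beside 7.12% of all genes. The HSP70 partners Hsph1 and Dnaja4 were among the 6. Flow values lay below all controls in 3 of the 45, beside 8.0% of all genes.

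The promoter stretches below are shown because they carry matches to the ER stress element or to the heat shock element. Sequences are from RefSeq promoter windows of build GRCm38.p6, which run from 250 bases before to 50 bases after a gene's start, and 67 of the 92 symbols of the rule had a window. Each stretch is 150 bases, written 5′ to 3′ on the gene's own strand, and capitals mark the motif found. The ER stress element was searched as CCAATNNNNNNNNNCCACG or its reverse complement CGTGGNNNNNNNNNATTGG. The heat shock element was searched with 3 alternating units, either GAA, TTC and GAA or TTC, GAA and TTC with any 2 bases between units, and with 2 units, as GAANNTTC or TTCNNGAA, on both strands. Every match of 3 units contains matches of 2 units. In the first 3 stretches the capitals are ER stress elements, of which Hsp90b1 has one in each orientation. In the last 4 they match the heat shock element, with 3 units in Hspe1 and with only 2 units in Hspa1a, Hspa1b and Dnaja4. The Hspa5 stretch is chr2:34771940-34772089 on the plus strand, that of Hsp90b1 is chr10:86705525-86705674 on the minus strand, and that of Dnajc3 is chr14:118937782-118937931 on the plus strand. The Hspe1 stretch is chr1:55087998-55088147 on the plus strand. Hspa1a is shown over chr17:34972157-34972306 and Hspa1b over chr17:34959239-34959388, both on the minus strand. The Dnaja4 stretch is chr9:54699409-54699558 on the plus strand.
Hspa5: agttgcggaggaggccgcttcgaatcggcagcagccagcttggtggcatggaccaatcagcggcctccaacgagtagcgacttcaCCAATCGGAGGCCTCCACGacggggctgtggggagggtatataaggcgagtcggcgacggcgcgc
Hsp90b1: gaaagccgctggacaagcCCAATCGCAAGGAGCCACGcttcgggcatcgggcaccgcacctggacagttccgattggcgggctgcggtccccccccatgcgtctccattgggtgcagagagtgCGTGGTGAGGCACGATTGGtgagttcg
Dnajc3: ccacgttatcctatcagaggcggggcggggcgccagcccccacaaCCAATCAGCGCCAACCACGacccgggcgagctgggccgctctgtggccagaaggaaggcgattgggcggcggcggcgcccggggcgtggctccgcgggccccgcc
Hspe1: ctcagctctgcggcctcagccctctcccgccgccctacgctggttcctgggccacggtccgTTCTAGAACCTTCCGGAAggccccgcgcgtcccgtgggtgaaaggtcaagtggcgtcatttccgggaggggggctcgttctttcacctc
Hspa1a: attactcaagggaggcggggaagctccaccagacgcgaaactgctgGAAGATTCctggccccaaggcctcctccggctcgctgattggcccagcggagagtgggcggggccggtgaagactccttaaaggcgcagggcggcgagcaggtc
Hspa1b: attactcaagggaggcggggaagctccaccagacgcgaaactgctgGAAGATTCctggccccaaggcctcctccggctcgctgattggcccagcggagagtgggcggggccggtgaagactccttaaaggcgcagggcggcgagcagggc
Dnaja4: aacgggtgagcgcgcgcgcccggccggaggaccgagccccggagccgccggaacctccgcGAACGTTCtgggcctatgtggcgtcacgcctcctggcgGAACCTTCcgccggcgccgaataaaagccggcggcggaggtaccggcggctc

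An ER stress element was present in 3 of the 67 members with a window (4.48%), against 0.137% of 27025 genes in the table. These were Hspa5, Hsp90b1 and Dnajc3, and their median log2 fold change was 0.37, with all 3 above 0. Of the 48 tested members with a window and no ER stress element, 32 were above 0 and the median was 0.11. With the GC trend of protein-coding genes removed, Hspa5, Hsp90b1 and Dnajc3 stood at 0.28, 0.22 and 0.17. The median over all 64 tested members was then 0.09. A heat shock element of 3 units was present in 4 members (5.97%), against 0.662% of genes: Dnajb6, Hspd1, Hspe1 and Hsph1. All 4 had fold changes above 0, with a median of 0.16, beside 31 of 47 tested members with a window and no such element, whose median was 0.12. Hspd1 and Hspe1 lie head to head on chromosome 1, and the match shown for Hspe1 is the same stretch of DNA that was found for Hspd1. The element of Hsph1 lies after its start and is not printed. A heat shock element of 2 units is a short motif and was present in 18 of 67 members (26.9%), against 17.0% of genes. Of the 14 tested members with one, 12 had a fold change above 0 and the median was 0.16, beside 0.12 for the 37 tested members with a window and none. The Hspa1a and Hspa1b stretches are identical at 149 of 150 bases (99.3%). A match is a description of the letters and not a measured binding site.

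Values are FPKM as the authors deposited them, that is, fragments scaled to transcript length and library depth, so that levels can be compared between genes. Fold changes are differences of mean log2(FPKM + 1), flow minus control, a scale that shrinks differences of low genes, with limma's standard error (SE) and n = 3 libraries per group. Estimated depth was 11020000, 5760000 and 19230000 reads in flow libraries 1 to 3, against 17910000 to 19010000 in the controls, so that flow libraries 1 and 2 were the shallowest. Flow libraries 1 and 2 also stood apart in base composition: relative to the mean of the 6 libraries, genes of 40% GC stood at 0.20 and 0.24 in them on the log2 scale, against -0.12 in flow library 3 and -0.12 to -0.09 in the controls. The labelled cell line was checked by its markers. Pdpn, an early osteocyte marker, stood at 391 to 417 FPKM in flow and 357 to 420 FPKM in control libraries, whereas the late markers Sost and Mepe were listed at 0 in all 6 and Dmp1 reached at most 0.0354 FPKM. The 9 measured markers of leukocytes, endothelium, epithelium, muscle and fat summed to 2.51 to 2.83 FPKM in flow and at most 3.46 FPKM in control libraries, most of it from Cd68.

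Over all genes limma called 2 of 11957 (0.0167%) at an adjusted p under 0.05, and 0 of the 64 tested members were among them. The smallest adjusted p of a member was 0.559. Without adjustment, 6 members had p under 0.05 and were higher in flow, where 3.7% of all genes did, and 1 was lower, where 4.82% did. These were Dnaja4, Hsph1, Hspa13, Hsf2, Dnajb9 and Dnajc3, and on the lower side Hspb6. In 14 of 64 members (21.9%) the 3 flow values lay above the 3 control values, against 7.12% of all genes, and in 3 members (4.69%) they lay below, against 8.0%. The fold change was above 0 in 43 of 64 members (67.2%), against 48.3% of all genes. Its median was 0.11 over the members, with a range of -0.35 to 0.56, beside -0.01 over all genes. Fewer cells that express a gene and less of its RNA per cell cannot be told apart in RNA of whole cultures.

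**Figure D1:**
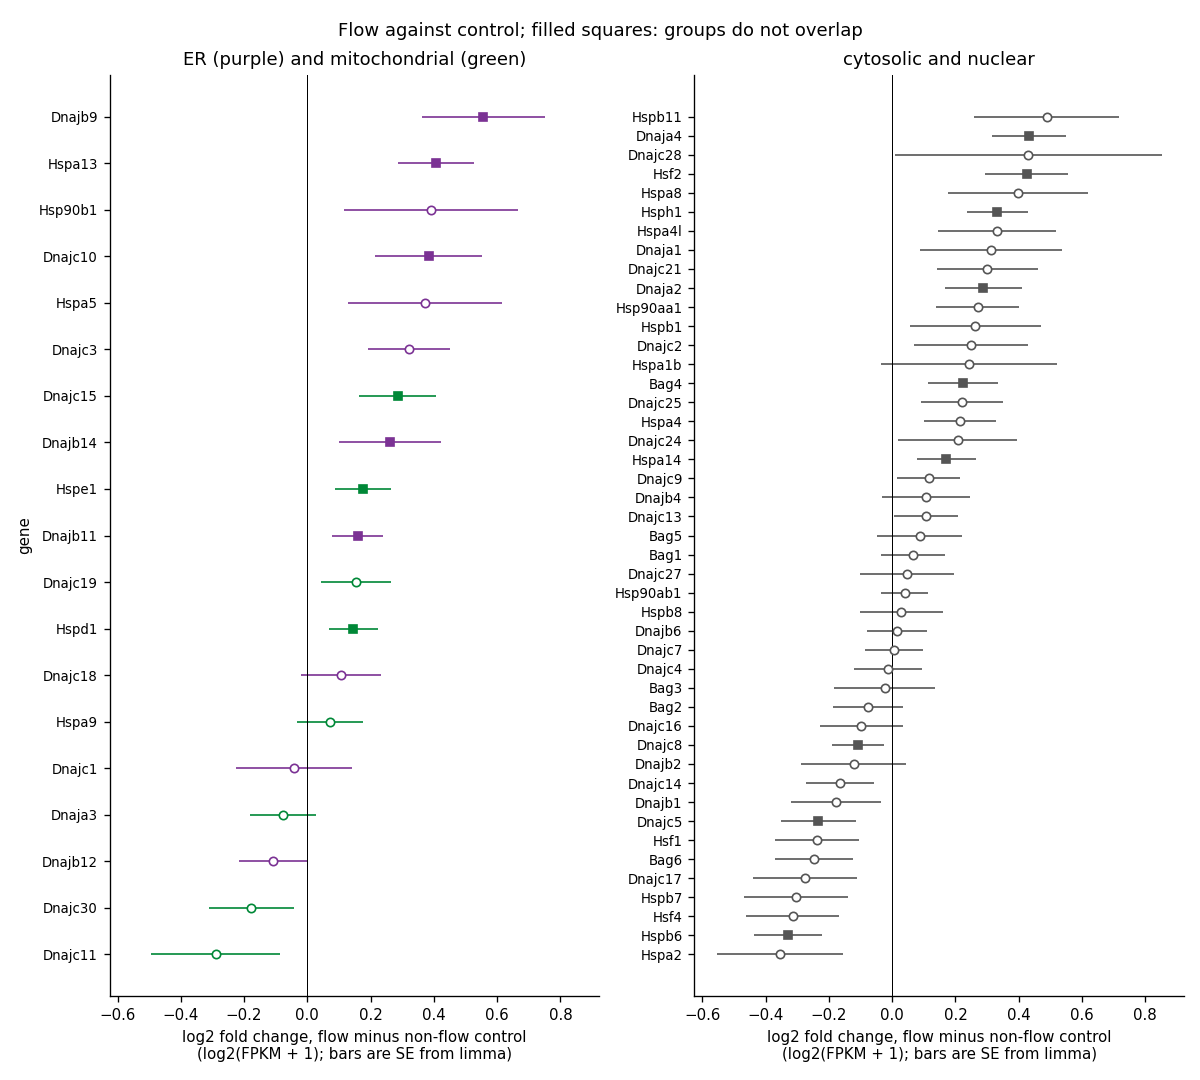
Log2 fold change, flow minus non-flow control, of each of the 64 tested members on the log2(FPKM + 1) scale, with bars of 1 SE from limma (n = 3 libraries per group). Filled squares mark members whose flow and control values do not overlap. Of the ER members (purple) 9 of 11 lie right of 0, of the mitochondrial members (green) 5 of 8, and of the cytosolic and nuclear members (grey) 29 of 45.

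Medians by compartment are given as a description and were not tested against each other. The median log2 fold change was 0.32 over the 11 ER members, 0.11 over the 8 mitochondrial members and 0.09 over the 45 cytosolic and nuclear members. Flow values lay above all controls in 5 of 11 ER members (45.5%), 3 of 8 mitochondrial members (37.5%) and 6 of 45 cytosolic and nuclear members (13.3%), beside 7.12% of all genes. They lay below all controls in 0, 0 and 3 members of those lists, beside 8.0% of all genes. With the GC trend of protein-coding genes removed, as described further on, they lay above in 3 of 11 ER and 2 of 8 mitochondrial members. The same held for 7 of 45 cytosolic and nuclear members, beside 6.35% of protein-coding genes. By family, the median was 0.30 for class A J proteins, 0.29 for HSP70 and HSP110 proteins, 0.27 for HSP90 proteins and 0.16 for the chaperonin pair. It was 0.11 for class C and 0.06 for class B J proteins, 0.03 for small heat shock proteins, 0.02 for BAG proteins and -0.24 for heat shock factors. With the GC trend removed the family medians were closer to each other, at 0.13 for class A, 0.06 for class B and 0.06 for class C J proteins, 0.17 for HSP70 and HSP110, 0.14 for HSP90, 0.09 for the chaperonin pair, 0.13 for small heat shock proteins, 0.10 for BAG proteins and -0.08 for heat shock factors. Without flow library 2 the ER median was 0.19. The cytosolic and nuclear median was 0.05 without flow library 1, and the mitochondrial median was 0.07 without flow library 2 or without control 1.

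The most abundant members were the ER pair Hsp90b1 and Hspa5 and the cytosolic pair Hsp90ab1 and Hsp90aa1, the 4 members with means of at least 1000 FPKM. Another 12 stood at 100 FPKM or more, which makes 16 in all. All members together took 1.83%, 2.16% and 1.67% of the summed FPKM in flow libraries 1 to 3, against 1.47%, 1.84% and 1.59% in controls 1 to 3. Hspa5 and Hsp90b1 alone took 0.849%, 1.15% and 0.682% in flow, against 0.568%, 0.876% and 0.659% in control libraries. The flow and control ranges overlap for both sums.

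**Figure D2:**
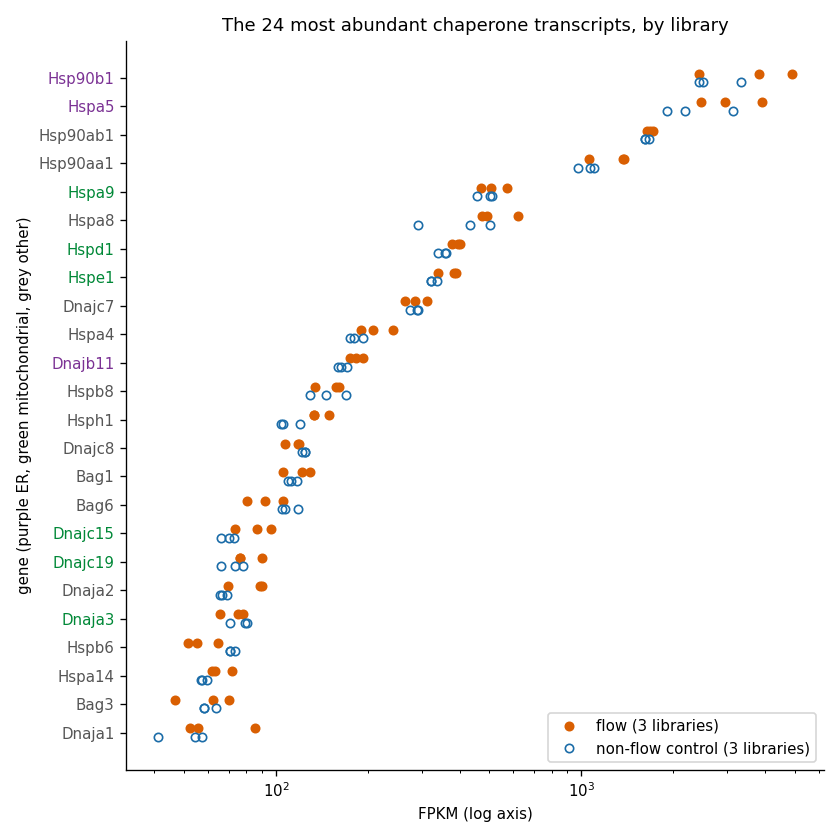
FPKM (log axis) of the 24 most abundant members in each library, with filled points for the 3 flow and open points for the 3 non-flow control libraries, in descending order of mean level. Hsp90b1 and Hspa5 reach 4908 and 3924 FPKM in flow library 2, and the flow and control points of Hsp90ab1 lie between 1621 and 1714 FPKM.

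The heat shock factors, which bind heat shock elements, are described first. Hsf1, the factor that heat activates, had 38.0, 36.4 and 49.7 FPKM in flow, against 47.2, 49.5 and 48.7 FPKM in control libraries. Flow libraries 1 and 2 were below all controls and flow library 3 above them (log2 fold change -0.24, SE 0.13). Hsf1 is regulated largely at the protein level, which these data do not measure. Hsf2, a factor active in development and with Hsf1 under stress, had 17.7, 19.1 and 16.4 FPKM in flow, against 11.3, 12.7 and 15.02 FPKM in control libraries. The groups do not overlap, and the fold change was 0.42 (SE 0.13, limma adjusted p = 0.559). The authors deposited a second FPKM table, in which 2 flow columns match no library title, and there the fold change of Hsf2 was 0.17. That table is shallower, with an estimated 690000 reads in control 1 and 3610000 to 4720000 in its other libraries. Hsf4 had 4.21, 4.08 and 5.39 FPKM in flow, against 6.46, 5.26 and 5.98 FPKM in control libraries, which overlap (fold change -0.31, SE 0.15). Hsf3 was listed at 0 in all libraries and Hsf5 did not exceed 0.0438 FPKM.

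Among cytosolic HSP70 proteins, the inducible pair had low values. Hspa1a had 0.0332, 0.0637 and 0.0190 FPKM in flow, against 0.0818, 0.0608 and 0.0193 FPKM in control libraries. At the estimated depths these values correspond to about 1 read in each flow library, against 4, 3 and 1 reads in controls 1 to 3, and 3 reads would be 0.0564 to 0.188 FPKM in flow and 0.0570 to 0.0605 FPKM in control libraries. No fold change is given for it. Hspa1b had 1.25, 0.778 and 1.97 FPKM in flow, against 0.844, 1.32 and 0.682 FPKM in control libraries, with overlapping groups (fold change 0.24, SE 0.28). The 2 genes are near-identical neighbours on chromosome 17, 66.3% and 62.3% of their 50-base words occur in another gene, and how the authors' counting divided such reads is not given in the sources used here. Hspa1l, a testis relative beside them, was listed at 0.

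The constitutive HSP70 gene Hspa8 had 622, 492 and 474 FPKM in flow, against 432, 502 and 293 FPKM in control libraries. Control 2 lay above 2 of the 3 flow libraries, and the fold change was 0.40 (SE 0.22, limma adjusted p = 0.563). Without control 3, the lowest library, it was 0.17. Of its 50-base words 52.7% also occur in other genes, most of them unnamed gene models. Hspa4, an HSP110 protein that serves HSP70 as nucleotide exchange factor, had 208, 241 and 189 FPKM in flow, against 193, 179.8 and 174 FPKM in control libraries, so that flow library 3 fell within the control range. Hsph1, the heat-inducible HSP110 protein, had 149, 133 and 133 FPKM in flow, against 104, 119.6 and 105 FPKM in control libraries. Every flow value was above every control value, and the fold change was 0.33 (SE 0.10, limma adjusted p = 0.559), or 0.21 in the other deposited table. Hsph1 lies on chromosome 5 at 149614287 to 149636376 (mm10) and shares no 50-base word with another gene. Hspa4l, the third HSP110 gene, had 45.9 and 45.1 FPKM in flow libraries 1 and 2 and 29.0 FPKM in flow library 3, against 29.3 to 32.1 FPKM in control libraries. The tested row named Hspa14, the symbol of a ribosome-associated HSP70, was higher in each flow library. It had 61.7 to 71.8 FPKM in flow, against 56.7 to 59.7 FPKM in control libraries. Its identifier carries another name, Gm45902, in GENCODE M21, where a separate Hspa14 gene overlaps 7.38% of its exon bases on the same strand. Whether its values are those of the HSP70 gene was not tested. Hspa2, an HSP70 gene best known from testis, had 1.12 to 1.99 FPKM in flow and 1.97 to 2.31 FPKM in control libraries, the lowest fold change of all members (-0.35, SE 0.20).

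Of the cytosolic HSP90 proteins, the constitutive Hsp90ab1 had the smallest SE of all tested members. It had 1714, 1647 and 1685 FPKM in flow, against 1668, 1621 and 1621 FPKM in control libraries (fold change 0.04, SE 0.07). The stress-responsive Hsp90aa1 had 1375, 1382 and 1061 FPKM in flow, against 1101, 1067 and 979 FPKM in control libraries. Flow libraries 1 and 2 were above all controls and flow library 3 was within them, with a fold change of 0.27 (SE 0.13, limma adjusted p = 0.559), or 0.08 in the other deposited table. Hsp90aa1 shares 58.5% of its 50-base words with other genes, against 4.49% for Hsp90ab1.

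J proteins bring clients to HSP70 and stimulate its ATPase. Among class A, the canonical Hsp40 type, Dnaja4 had 18.4, 18.96 and 17.6 FPKM in flow, against 11.99, 15.3 and 12.8 FPKM in control libraries. The groups do not overlap, and this member had the smallest p (fold change 0.43, SE 0.12, limma adjusted p = 0.559). In the other deposited table its fold change was 0.25 (limma adjusted p = 0.810). It lies on chromosome 9 at 54698873 to 54716315 (mm10), and 44.1% of its exon bases overlap exons of Wdr61 on the other strand, whose reads cannot be told apart without known strand use. Dnaja2 had 88.8, 90.0 and 69.7 FPKM in flow, against 69.2, 66.7 and 65.7 FPKM in control libraries, with flow library 3 just above the highest control. Dnaja1 had 85.4, 55.6 and 52.2 FPKM in flow, against 54.3, 57.3 and 41.0 FPKM in control libraries, and flow libraries 2 and 3 were within the control range. In class B, Dnajb1, a heat-induced partner of Hspa1a, had 26.1, 26.6 and 34.6 FPKM in flow, against 29.2, 35.3 and 34.1 FPKM in control libraries (fold change -0.18, SE 0.14). Dnajb4, a close relative of Dnajb1, had 62.5, 58.9 and 46.4 FPKM in flow, against 48.3, 56.6 and 49.8 FPKM in control libraries, and Dnajb6 had 13.0 to 13.4 FPKM in flow and 12.4 to 14.1 FPKM in control libraries. Both overlap between groups.

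Class C holds J proteins of varied function. Dnajc7, which binds both HSP70 and HSP90, was the most abundant, with 312, 284 and 265 FPKM in flow, against 292, 289 and 275 FPKM in control libraries (fold change 0.01, SE 0.09). Dnajc8, a nuclear J protein linked to splicing, had 107, 118 and 119 FPKM in flow, against 124, 124 and 121 FPKM in control libraries. Every flow value was below every control value, with a fold change of -0.11 (SE 0.08). Dnajc5, the cysteine string protein of secretory vesicles, had 26.5, 27.8 and 34.4 FPKM in flow, against 34.6, 34.9 and 34.7 FPKM in control libraries, so that flow library 3 was only just below. Dnajc21 and Dnajc2, which act with the ribosome, showed the same division of the flow libraries as Hspa4l. Dnajc21 had 35.3 and 35.9 FPKM in flow libraries 1 and 2 and 24.5 FPKM in flow library 3, against 24.8 to 25.7 FPKM in control libraries. Dnajc28, at 2.94, 0.940 and 0.338 FPKM in flow and 0.513 to 0.722 FPKM in control libraries, had the largest SE of the tested members, 0.42. The other tested class C members outside the ER and mitochondrial lists had fold changes between -0.28 (Dnajc17) and 0.25 (Dnajc2), and their groups overlap.

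The small heat shock proteins, which hold unfolded proteins without ATP, had fold changes on both sides of 0. Hspb8, a partner of Bag3 in selective autophagy, was the most abundant, with 135, 157 and 161 FPKM in flow, against 129.7, 169.9 and 146 FPKM in control libraries. Hspb6, known from muscle, had 54.9, 51.6 and 64.8 FPKM in flow, against 70.8, 70.8 and 73.5 FPKM in control libraries. It was below every control in each flow library, and it is the 1 member on the lower side with an unadjusted p under 0.05 (fold change -0.33, SE 0.11, limma adjusted p = 0.559). Hspb1, the heat-inducible Hsp25 of the mouse, had 26.8, 15.6 and 22.8 FPKM in flow, against 19.1, 18.4 and 15.4 FPKM in control libraries, which overlap. Of its 50-base words 51.6% are shared with pseudogenes. Hspb7 had 8.31 to 9.98 FPKM in flow and 9.26 to 13.8 FPKM in control libraries. Hspb11, an intraflagellar transport protein despite its name, had 66.1, 63.1 and 36.6 FPKM in flow, against 36.9, 39.8 and 36.9 FPKM in control libraries, the clearest case of flow library 3 standing apart from the other flow libraries.

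Most BAG proteins promote the release of nucleotide from HSP70. Bag1 had 122, 129 and 105 FPKM in flow, against 112, 117 and 109.7 FPKM in control libraries. Bag6, which guards membrane and secretory proteins in the cytosol, had 92.2, 80.4 and 106 FPKM in flow, against 104, 107 and 118 FPKM in control libraries (fold change -0.25, SE 0.12). Bag3, which Hsf1 induces, had 62.0, 46.7 and 70.4 FPKM in flow, against 63.8, 58.1 and 57.9 FPKM in control libraries. Flow library 2 was the lowest and flow library 3 the highest of all 6, and the fold change was -0.02 (SE 0.16). Bag4 had 6.66, 6.90 and 6.15 FPKM in flow, against 5.67, 5.14 and 5.63 FPKM in control libraries, without overlap (fold change 0.22, SE 0.11), and 19.7% of its 50-base words are shared. Bag2 and Bag5 overlap between groups.

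In the ER, Hspa5 (BiP, the HSP70 of the ER, which also binds the ER stress sensors) had 2957, 3924 and 2464 FPKM in flow, against 1912, 3144 and 2195 FPKM in control libraries. Hsp90b1 (Grp94) had 3835, 4908 and 2439 FPKM in flow, against 2431, 3336 and 2511 FPKM in control libraries. In both genes library 2 was the highest of its group in flow and in control, and flow libraries 1 and 3 of Hspa5 were below control 2. Mean levels of Hspa5 were 3115 ± 743 FPKM in flow and 2417 ± 645 FPKM in control (SD, n = 3), and the fold change was 0.37 (SE 0.24, limma adjusted p = 0.597). For Hsp90b1 the fold change was 0.39 (SE 0.27, limma adjusted p = 0.613), and flow library 3 was within the control range. Without flow library 2 the fold change was 0.19 for Hspa5 and 0.16 for Hsp90b1. Hspa5 stood at 0.22 without control 1 and at 0.58 without control 2, and Hsp90b1 at 0.67 without flow library 3. Hspa5 (chromosome 2, 34771970 to 34777547, mm10) shares no 50-base word with another gene, and Hsp90b1 (chromosome 10, 86690209 to 86705509) shares 10.0%.

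Dnajb9 (ERdj4), a J protein that the ER stress pathway induces and that holds back Ire1, had 47.4, 64.4 and 48.6 FPKM in flow, against 27.7, 40.2 and 40.7 FPKM in control libraries. Its groups do not overlap, and its fold change was the highest of all members (0.56, SE 0.20, limma adjusted p = 0.559). Dnajc3, an ER J protein that restrains the kinase Perk, had 63.4, 63.7 and 49.4 FPKM in flow, against 44.0, 50.6 and 45.5 FPKM in control libraries. Flow library 3 was below control 2, and the fold change was 0.32 (SE 0.13, limma adjusted p = 0.559). Dnajb11 (ERdj3), which hands clients to Hspa5, had 192, 183 and 175 FPKM in flow, against 159, 170.3 and 163 FPKM in control libraries. All its flow values were above the controls, and the fold change was 0.16 (SE 0.08, limma adjusted p = 0.559).

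Of the ER members not named with the stress response, Hspa13, an HSP70-like ATPase of microsomes, had 45.5, 45.6 and 35.7 FPKM in flow, against 30.3, 31.99 and 32.1 FPKM in control libraries. The groups do not overlap (fold change 0.41, SE 0.12, limma adjusted p = 0.559). Dnajc10 (ERdj5), a disulfide reductase of the ER, had 53.5, 74.5 and 47.9 FPKM in flow, against 43.5, 43.6 and 44.6 FPKM in control libraries, again without overlap (fold change 0.38, SE 0.17). Dnajb14 had 2.41 to 2.78 FPKM in flow and 1.69 to 2.14 FPKM in control libraries. Dnajb12, its relative in the ER membrane, had 22.4 to 27.3 FPKM in flow and 25.5 to 28.6 FPKM in control libraries, a fold change of -0.11. Dnajc1 (19.9 to 26.2 FPKM in flow and 19.6 to 28.8 FPKM in control libraries) and Dnajc18 (4.22 to 5.08 FPKM in flow and 4.05 to 4.46 FPKM in control libraries) overlap between groups.

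**Figure D3:**
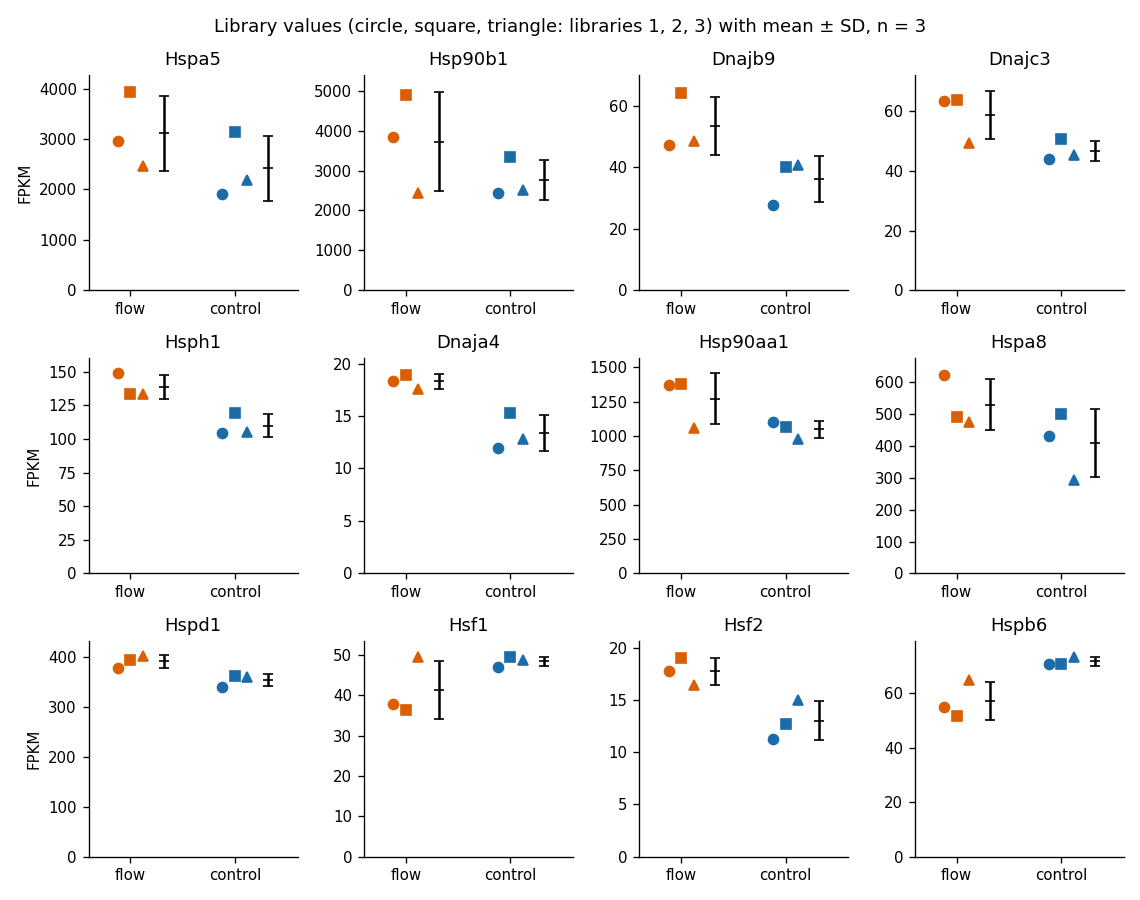
FPKM of 12 members in each library (circle, square and triangle for libraries 1, 2 and 3), flow left of non-flow control, with mean ± SD (n = 3) beside the points and axes that start at 0. Dnajb9, Hsph1, Dnaja4, Hspd1 and Hsf2 have no overlap with flow above, Hspb6 none with flow below, and in Hspa5 and Hsp90b1 library 2 is the highest of both groups.

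In the mitochondrion, the chaperonin pair Hspd1 (Hsp60) and Hspe1 (Hsp10), which form the folding chamber of the matrix, was higher in each flow library. Hspd1 had 376, 394 and 401 FPKM in flow, against 339, 361 and 358 FPKM in control libraries (fold change 0.15, SE 0.08, limma adjusted p = 0.560). Hspe1 had 389.6, 382 and 339.6 FPKM in flow, against 323, 338 and 321 FPKM in control libraries (fold change 0.18, SE 0.09, limma adjusted p = 0.559). Hspd1 was highest in flow library 3 and Hspe1 lowest there, and 44.8% of the 50-base words of Hspd1 occur in other genes. The matrix HSP70 Hspa9 (mortalin) had 508, 569 and 469.7 FPKM in flow, against 457, 502 and 509 FPKM in control libraries, which overlap (fold change 0.07, SE 0.10). Of the mitochondrial J proteins, Dnaja3 had 65.8, 75.3 and 77.8 FPKM in flow, against 70.8, 80.7 and 79.4 FPKM in control libraries (fold change -0.08, SE 0.10). Dnajc15, a J protein of the import motor, had 86.9, 96.2 and 73.5 FPKM in flow, against 66.0, 73.0 and 70.0 FPKM in control libraries. It lay above all controls (fold change 0.29, SE 0.12, limma adjusted p = 0.559), but its fold change was 0.09 in the other deposited table, whereas its relative Dnajc19 had 76.0 to 89.9 FPKM in flow and 66.1 to 77.9 FPKM in control libraries and overlaps. Dnajc11 (29.3 to 47.8 FPKM in flow and 40.6 to 51.8 FPKM in control libraries) had the lowest fold change of these genes, -0.29 (SE 0.20), and Dnajc30 stood at -0.18.

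The remaining 20 of the 84 rows were not tested. In 5 of them, Hspa1l, Hspb2, Dnajb8, Dnajc5g and Hsf3, the value was listed at 0 in all 6 libraries, and 15 had a mean above 0 and under 1 FPKM. The highest of those 15 was Hspa12b, with 0.487 to 1.07 FPKM in flow and 0.842 to 1.56 FPKM in control libraries, followed by Dnajc12 with 0.754 to 0.889 FPKM in flow and 0.469 to 1.08 FPKM in control libraries. Dnajb5 stood at 0.475 to 0.802 FPKM in flow and 0.597 to 0.770 FPKM in control libraries. A second identifier named Hspa14 is among them. Of the pseudogene rows 1, Hspe1-ps3, reached the limit, with 5.60, 4.29 and 0 FPKM in flow, against 0, 0.680 and 0 FPKM in control libraries, and it was left out of the counts of members. At the depth of each library, 3 reads on 1 kb equal 0.272, 0.521 and 0.156 FPKM in flow libraries 1 to 3 and 0.158 to 0.168 FPKM in control libraries.

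The flow libraries did not contribute equally. As deviations from the mean of the 3 controls, the ER members had medians of 0.32, 0.44 and 0.08 in flow libraries 1 to 3, against -0.06, 0.05 and 0.02 in controls 1 to 3. For Hspa5, Hsp90b1, Dnajb9, Dnajb11 and Dnajc3 the medians were 0.40, 0.73 and 0.08 in flow, against -0.17, 0.17 and -0.03 in control libraries. With the GC trend removed, the ER medians were 0.15, 0.20 and 0.09 in flow libraries 1 to 3, against -0.07, 0.05 and 0.03 in controls 1 to 3. Those of the 5 genes were then 0.23, 0.51 and 0.09 in flow, against -0.18, 0.17 and -0.03 in control libraries. Above all 3 controls were 8, 9 and 5 of the 11 ER members in flow libraries 1 to 3, against 33.9%, 35.0% and 23.6% of all genes. The mitochondrial medians were 0.07, 0.12 and 0.04 in flow, against -0.07, 0.06 and 0.02 in control libraries, and the cytosolic and nuclear medians were 0.11, 0.09 and 0.03 in flow, against 0.01, 0.03 and -0.03 in control libraries. With flow library 3 alone set against the controls, the median fold change was 0.08 over the ER members, 0.04 over the mitochondrial and 0.03 over the cytosolic and nuclear members. Without flow library 3, limma gave 26 members an unadjusted p under 0.05, 19 higher in flow, where 13.3% of all genes were, and 7 lower, where 13.1% were, and still called none. Without flow library 2 there were 4 such members higher in flow, where 1.97% of all genes were, and 0 lower, where 2.73% were. Without control 1 there were also 4, of which 3 were higher in flow, where 1.53% of all genes were, and 1 lower, where 2.48% were. With adjacent titles taken as pairs, a pairing that the labels do not give, there were 9 higher in flow, where 5.14% of all genes were, and 1 lower, where 6.6% were. Among protein-coding genes alone there were 10 higher in flow, where 4.16% of these genes were, and 1 lower, where 5.38% were.

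**Figure D4:**
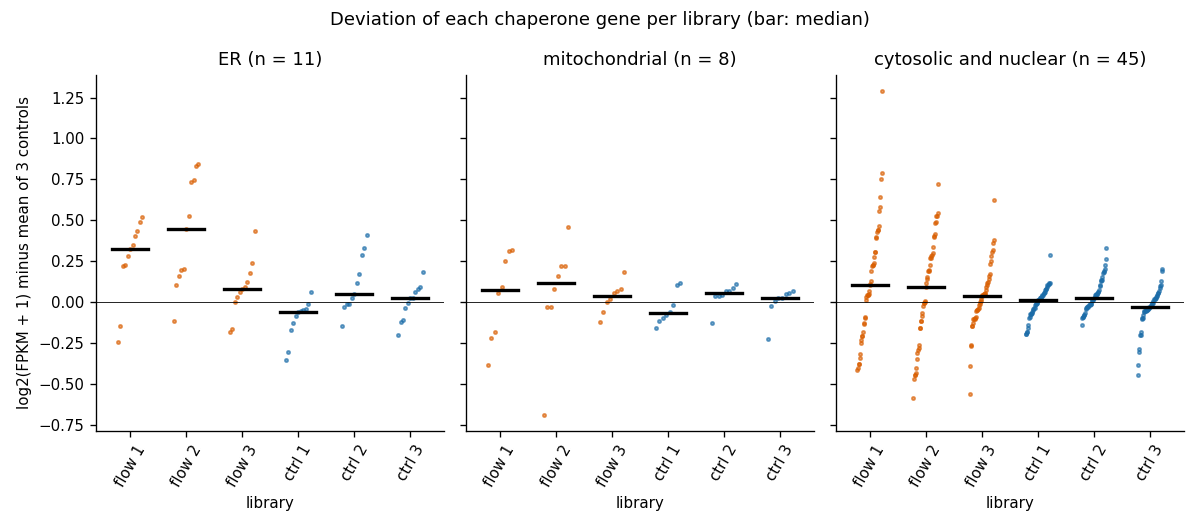
Deviation of each tested member from the mean of the 3 controls on the log2(FPKM + 1) scale, by library, with flow libraries 1 to 3 left of controls 1 to 3 and bars at the median. The ER medians are 0.32, 0.44 and 0.08 in flow libraries 1 to 3, and the third flow library lies nearest to the controls in each panel.

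The fold changes of the members ran against the GC content of their transcripts. Over the 64 members the Pearson correlation of fold change and GC content was -0.68 (Spearman -0.72). Over 10460 protein-coding genes the Pearson value was -0.54. All points share the same 6 libraries, and no test is attached. Member by member the correlation with GC was -0.58 and -0.74 in flow libraries 1 and 2 and -0.12 in flow library 3. Of 38 members with under 50% GC, 34 had a fold change above 0 and the median was 0.26, whereas of 26 members with at least 50% GC 9 were above 0 and the median was -0.09. The ER members had a median GC content of 44.9%, against 46.3% for mitochondrial and 49.7% for cytosolic and nuclear members.

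With the GC trend of protein-coding genes removed from each library, the ER median was 0.19, the cytosolic and nuclear median 0.10 and the mitochondrial median -0.03. Fold changes were then above 0 in 10 of 11 ER members, 31 of 45 cytosolic and nuclear members and 3 of 8 mitochondrial members, beside 49.4% of protein-coding genes. The 3 flow values lay above the 3 control values in 12 members, against 6.35% of protein-coding genes, and below them in 3, against 5.96%. Bag4, Dnaja2, Dnaja4, Dnajb11, Dnajc10, Dnajc15, Hspa13, Hspa14, Hspe1 and Hsph1 were among the 12 as they were among the 14 before, and Hsp90ab1 and Hspb1 joined them. Dnajb9, Dnajb14, Hsf2 and Hspd1 no longer were. Dnaja4 and Hsph1 stood at 0.45 (SE 0.12) and 0.29 (SE 0.09) after removal, against 0.43 and 0.33 before. Hsf2, the tested member with the lowest GC content (36.2%), stood at 0.13 after removal, and Hspb1, the tested member with the highest (61.7%), at 0.50. Removal moved the fold change by more than 1.5 times in 46 of the 64 members, of which 31 came closer to 0, 8 moved away from it and 7 changed sign. Among the 31 were Hspa13 (0.19 after removal), Dnajb9 (0.36), Dnajc3 (0.17), Hsp90b1 (0.22), Hsp90aa1 (0.14), Dnajc15 (0.16), Dnaja2 (0.13), Hspe1 (0.09), Bag4 (0.10), Hspb6 (-0.18), Bag6 (-0.03), Hsf1 (-0.13) and Hsf4 (-0.08). Hspa5 stood at 0.28 after removal and Hspa8 at 0.32. The correlation of fold change and GC content after removal was -0.58 over the 11 ER, -0.50 over the 8 mitochondrial and -0.06 over the 45 cytosolic and nuclear members (Pearson). The part that GC content and depth have in the ER and other differences was not tested further.

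**Figure D5:**
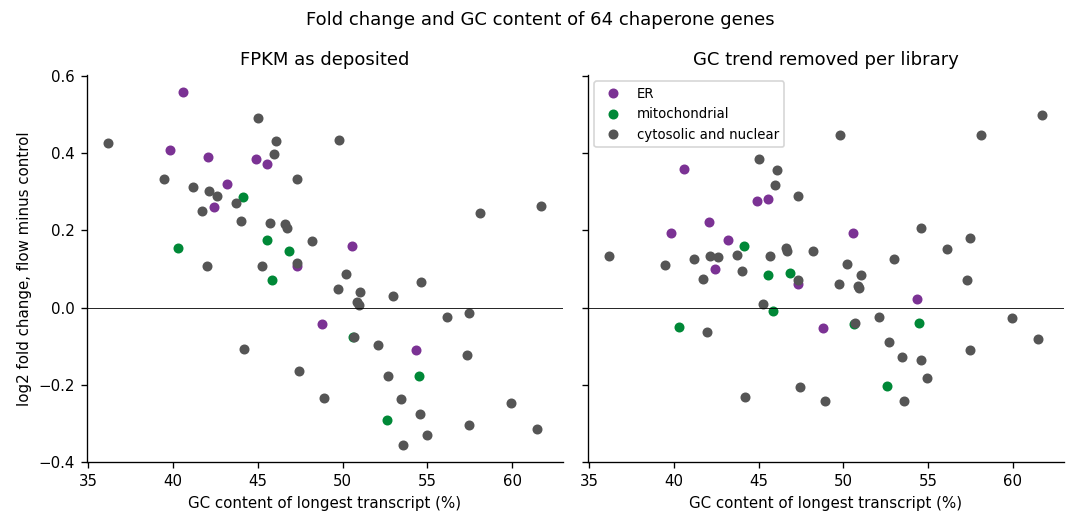
Log2 fold change, flow minus non-flow control, of the 64 tested members against the GC content of the longest transcript in percent, as deposited (left) and with the GC trend of each library removed (right). On the left members under 50% GC lie mostly above 0 (34 of 38), and on the right the Pearson correlation over all 64 is -0.16 (Spearman -0.27).

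Other genes of these pathways gave the same picture of no calls. Of 20 co-chaperones of HSP90 and HSP70, 10 had a fold change above 0 and the median was -0.03. Chordc1, a zinc-binding HSP90 co-chaperone, had 59.0, 54.5 and 41.2 FPKM in flow, against 33.7, 36.4 and 32.8 FPKM in control libraries (fold change 0.56, SE 0.15, limma adjusted p = 0.559). With the GC trend removed Chordc1 stood at 0.26 (SE 0.09). In 7 of the 20 all flow values were below all controls, against 8.0% of all genes. After GC removal this held for 3 of the 20, St13, Cdc37 and Aarsd1, against 5.96% of protein-coding genes, and Stub1, one of the 7, stood at 0.08, against -0.15 before. Of 13 subunits of the cytosolic chaperonin and prefoldin, 11 were above 0 with a median of 0.09, and with the GC trend removed 6 of the 12 in that fit were above 0, with a median of 0.02. Pfdn1 (0.32, and 0.37 after removal), Vbp1 (0.43 and 0.12) and Pfdn4 (0.27 and 0.05) had the smallest p. The 3 tested genes of a list of other stress-induced genes were Cryab, Serpinh1 and Hmox1, of which Hmox1 is an enzyme and not a chaperone. They were below 0 as deposited, with a median of -0.24, which is the value of Hmox1 (SE 0.54). With the GC trend removed Serpinh1 was above 0 (0.14) and the median was -0.12. Of 11 mitochondrial proteostasis genes, 5 were above 0 and the median was -0.01, with Hscb at 0.36, Clpp at -0.16 and Clpx at 0.14.

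Of 20 further genes of ER folding and the unfolded protein response, 14 were above 0 with a median of 0.06. With the GC trend removed 16 were above 0, with a median of 0.07. As deposited, all flow values lay above all controls in 1 of the 20 and below them in 2, beside 7.12% and 8.0% of all genes. Sel1l, a part of the machinery that sends misfolded ER proteins to degradation, had 66.8, 86.9 and 50.5 FPKM in flow, against 40.6, 50.2 and 35.9 FPKM in control libraries (fold change 0.65, SE 0.22, limma adjusted p = 0.559). Pdia3 stood at 0.32 and Sil1, the exchange factor of Hspa5, at -0.23. The stress markers Ddit3 and Xbp1 stood at -0.07 and -0.05. With the GC trend removed Sel1l, Pdia3, Sil1, Ddit3 and Xbp1 stood at 0.62, 0.26, -0.07, -0.16 and 0.05. Library 2 was the highest flow library in 16 of these 20 genes and the highest control in 17, where 33.1% and 34.3% of all genes did so. The same held in 4 of the 5 genes Hspa5, Hsp90b1, Dnajb9, Dnajb11 and Dnajc3 in flow and in 4 of 5 in control libraries. No label says that flow library 2 and control 2 share a day. No gene of these 5 lists was called.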

How the data were processed

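Per the labels' protocols, a NEXTflex rapid RNA sequencing kit was used and libraries were sequenced on an Illumina HiSeq as single-end reads of 50 cycles. Build mm10, Cufflinks 2.2.1, TopHat2 2.0.9 and CASAVA 1.8.2 are named in the submitters' processing notes, whereas no annotation, counting setting or strand use is given in the sources used here. The authors deposited 2 tables of FPKM with 1 column per library and no counts, so that count models were not used. The table whose 6 columns all name a library title served for the tests. In the other, 2 columns match no title and served only as flow libraries, and 22 gene identifiers occur again, of which the more abundant row was taken. Depth was read off the smallest steps between low FPKM values, and limits of 3 reads cover counting error only.

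Testing used log2(FPKM + 1) in limma 3.58.1 under R 4.3.3 (lmFit, then eBayes with a variance trend, two-sided, without covariates). Benjamini-Hochberg adjustment ran over all 11957 genes that reached a mean of 1 FPKM, with a threshold of 0.05. An exact two-sided permutation test of 3 against 3 libraries cannot give a p under 0.1, so none was run. Coordinates, GC content of the longest transcript, exon overlaps and shared 50-base words came from GENCODE M21 on mm10, in which 92 of the 93 rows were found. The GC trend was removed per library with a lowess fit (fraction 0.3) over protein-coding genes. The limma fit and the depth estimate were tested on simulated data, and the removal of the GC trend was not. No 2 libraries were identical, and log2 values of library pairs correlated at 0.896 to 0.926. Values in every library are given, within each family, for up to 3 members of highest mean and up to 3 of smallest p, and for the best known members always. Exceptions are Dnajb14 and Hspb7, which are given as ranges, and Bag2, whose values are not printed. Other members are described because their groups do not overlap or their spread was seen to be wide. The members and lists were chosen with earlier results of these data known. The day shared by a flow and a control library is not labelled, so no pairs were used in the test reported.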

Additional observations from a re-analysis of the deposited data

How the results depend on the processing

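No member was called under any of 18 alternatives, and the smallest adjusted p of a named member over them was 0.0678 (limma, without flow library 3). Over all genes 2 were called, 4 with a pseudocount of 0.1 FPKM, 4 with no filter on low values, 0 of protein-coding genes alone, 0 with the GC trend removed and 76 without flow libraries 1 and 2, where flow library 3 is alone and is assumed to vary like the controls. Omission of 1 library at a time gave 3 to 14. Adjacent titles as pairs (a replicate block) gave 1 call over all genes and 10 members with an unadjusted p under 0.05 (15.6%, beside 11.7% of all genes), against 7 (10.9%, beside 8.52%) without pairs. Deviations of such pairs correlated at 0.043, 0.023 and 0.064, against -0.068 to 0.027 in the other pairs of a flow and a control library. All these values are small, and the pairing is not established. In protein-coding genes alone 11 members had an unadjusted p under 0.05 (17.2%, beside 9.54% of these genes). Without flow libraries 1 and 2 the median was 0.082 for ER, 0.035 for cytosolic and nuclear, 0.036 for mitochondrial and 0.044 for all members. The cytosolic and nuclear median was 0.024 with no filter. The mitochondrial median was 0.037 in the other deposited table and -0.025 with the GC trend removed, with and without the replicate block. Fold changes of 37 of 64 members in the other deposited table moved by more than 1.5 times, of which 15 came closer to 0, 13 moved away and 9 changed sign. Of 700 fold changes of 39 named members over the alternatives, 668 kept their direction. Part of these was fixed in advance. Other filters on low values, no variance trend, the replicate block and protein-coding genes alone leave each fold change as it was. The fit with the GC trend removed and the replicate block repeats the fold changes of that without the block. The 32 that turned belong to 13 members, none of them called. Without flow libraries 1 and 2 these were Bag1 (-0.099), Bag3 (0.23), Dnaja3 (0.018), Dnajb1 (0.076), Dnajb4 (-0.15), Dnajc7 (-0.10), Hsf1 (0.035), Hsp90b1 (-0.16), Hspa9 (-0.058) and Hspb11 (-0.045). In the other deposited table they were Bag2 (0.063), Bag3 (0.026), Dnaja3 (0.029), Dnajc7 (-0.088) and Hspb8 (-0.021). With the GC trend removed, with or without the replicate block, they were Bag3 (0.15), Dnajb4 (-0.063) and Hspa9 (-0.0098). With quantile normalization they were Dnajc7 (-0.022) and Hsp90ab1 (-0.015). Omission of 1 library gave Bag2 -0.13 to 0.019, Bag3 -0.15 to 0.14, Dnajc7 -0.055 to 0.062, Hspa9 -0.0016 to 0.14 and Hspb8 -0.063 to 0.13. The cause of these changes was not tested. Depth limits the lowest members most in flow library 2.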
